A study of Mus musculus with 12 samples.

Results

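Genes encoding core proteins of the spliceosome and RNA-binding splicing factors were analyzed in neutrophils of mammary tumors and of bone marrow. Members were the protein-coding genes whose symbol begins with Snrp, Lsm, Sf3a, Sf3b, Prpf, Srsf or Hnrnp and that had 10 or more counts in at least 4 of the 12 libraries. Of the 55335 genes listed, 79 carried such a symbol and 78 were kept. They comprised 12 Snrp genes, 13 LSm genes, 9 genes of SF3a and SF3b, 13 Prpf genes, 11 SR protein genes (Srsf), 19 hnRNP genes and Lsmem1. Lsmem1 shares only the letters of its symbol with the LSm proteins and encodes a leucine-rich single-pass membrane protein, so it is counted but given apart. The gene left out was Hnrnpu, with 10 or more counts in 3 libraries and 1 to 21 counts per library. At the other side of the limit, Snrpn was kept with exactly 4 such libraries, and 71 members had 10 or more counts in all 12. The count limit looked at levels and not at groups, but Snrpf and Snrpn reached it in no library of bone marrow, so they were kept through the tumor libraries alone. Lsm7, Srsf12 and Lsmem1 reached it in 1, 2 and 3 bone marrow libraries, so they too would not have been kept without tumor libraries.

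The libraries came from sorted neutrophils (CD45+ CD11b+ Ly6G+ F4/80-) of FVB mice aged 10 weeks and kept in a SOPF facility. Tumor-associated neutrophils (TANs) were taken from mammary tumors of PyMT mice (4 libraries), which carry the polyoma middle T oncogene as a transgene active in mammary epithelium, and of PyMT-Cxcr2-/- mice (4 libraries), which carry the same transgene and lack the chemokine receptor Cxcr2 in all cells. WT BM neutrophils (4 libraries) came from femurs and tibias of mice with neither the transgene nor the deletion. No group held WT mammary gland, Cxcr2-/- bone marrow or PyMT bone marrow, so tumor and tissue of origin cannot be told apart in the comparisons with WT BM. For both types of TANs the number of animals the study states per group equals the number of libraries, so p-values between them measure the spread between animals. For WT BM the sources used here do not say whether each library came from a different mouse.

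Splicing removes introns from newly made RNA. In the spliceosome, U1 and U2 small nuclear ribonucleoproteins (snRNPs) recognize the ends of the intron, and the U4/U6.U5 tri-snRNP joins before catalysis. The Snrp genes encode the ring of Sm proteins that surrounds most of these RNAs and proteins particular to U1 and U2, LSm proteins form the equivalent ring on U6, SF3a and SF3b hold U2 at the branch point, and Prpf genes encode factors of the tri-snRNP and of the catalytic steps. SR proteins mostly promote and hnRNP proteins often repress the use of nearby exons, which gives both families a part in alternative splicing. Several members also work elsewhere, since Lsm1 serves mRNA decay, Lsm14a and Lsm14b belong to cytoplasmic RNA granules and Lsm10 and Lsm11 are parts of the U7 snRNP that processes histone mRNA.

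Total counts on genes were 25032704 to 43092085 in the PyMT TAN libraries, 35519181 to 51351569 in those of PyMT-Cxcr2-/- mice and 38722900 to 44310707 in WT BM neutrophils. Levels are given as CPM, the counts of a gene relative to the library total after scaling by TMM factors, which correct for differences in library composition. Cxcr2 was at 1030 to 1536 CPM in the PyMT TAN libraries, 8.97 to 10.1 CPM in those of PyMT-Cxcr2-/- mice and 1818 to 2250 CPM in WT BM. All 8 neutrophil markers (S100a8, S100a9, Ly6g, Csf3r, Cxcr2, Itgam, Retnlg and Mmp9) were detected in each group. They include the deleted Cxcr2 itself. S100a8, S100a9, Itgam and Mmp9 are reported by the study as higher in PyMT-Cxcr2-/- TANs, so the sum is not a neutral measure of neutrophil content. The summed level was 10282 to 16696 CPM in the PyMT TAN libraries, 17736 to 29209 CPM in those of PyMT-Cxcr2-/- mice and 73713 to 98184 CPM in WT BM. The 7 macrophage markers summed to 1258 to 2518, 1234 to 2056 and 196 to 283 CPM in the same order. The 6 mammary epithelial markers summed to 47.2 to 423, 80.9 to 305 and 0.0599 to 0.400 CPM, and Krt8, Krt14 and Csn3 were at 0 in WT BM. The 4 proliferation markers summed to 79.7 to 141, 112 to 159.97 and 236 to 295 CPM. The 4 granule genes of immature neutrophils (Mpo, Elane, Prtn3 and Ctsg) summed to 1.42 to 8.38, 1.91 to 2.63 and 38.9 to 72.5 CPM. The erythroid markers summed to 86.4 CPM in PyMT TAN replicate 3 and 0.411 to 2.02 CPM in the other PyMT TAN libraries. The part of other cell types and of neutrophil maturity in the values below was not tested, and in such bulk samples fewer cells of a type and less RNA per cell cannot be told apart.

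Together the 78 genes took 0.698% to 0.765% of the counts on genes in the PyMT TAN libraries, 0.548% to 0.582% in those of PyMT-Cxcr2-/- mice and 0.471% to 0.565% in WT BM. This share of raw totals was thus higher in every PyMT TAN library than in any other. It does not use the TMM factors, which were 1.09 to 1.25, 0.935 to 1.09 and 0.753 to 0.890 in the same order. With TMM factors the summed hnRNP and LSm levels were higher in every WT BM library than in any PyMT TAN library. The Snrp sum was lower there, and the SF3, Prpf and SR sums overlapped. Members with a mean of at least 4 CPM varied between libraries of a group by a median coefficient of variation of 15.4% in the PyMT TAN libraries, 10.6% in those of PyMT-Cxcr2-/- mice and 9.92% in WT BM, against 23.4%, 14.7% and 10.8% over all genes at that level.

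Levels were compared between genes only per kilobase of merged exons. Srsf5, an SR protein, was highest in each group, at 113 ± 16.3 CPM per kb in TANs of PyMT mice, 113 ± 17.1 in TANs of PyMT-Cxcr2-/- mice and 137 ± 23.7 in WT BM (mean ± SD, n = 4). Sf3b1, the largest SF3b subunit, followed with 103 ± 17.0, 101 ± 12.5 and 66.5 ± 2.99 CPM per kb. In both types of TANs these 2 genes lay within 1 SD of each other, and in WT BM Srsf5 lay above Sf3b1 by more than the spread. Next in PyMT TANs came Hnrnpc (57.8 ± 6.83), Hnrnpk (50.8 ± 4.06) and Hnrnpa2b1 (41.2 ± 3.64), while in WT BM the third place was held by Hnrnpa2b1 (57.7 ± 5.71 CPM per kb). In Srsf5, Hnrnpc and Hnrnpk, 51.7%, 31.8% and 50.5% of the longest coding transcript match other genes, so their levels are uncertain. The summed level of the hnRNP genes was 2207 to 2618 CPM in the PyMT TAN libraries, 1911 to 2238 CPM in those of PyMT-Cxcr2-/- mice and 2678 to 2912 CPM in WT BM.

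**Figure D1:**
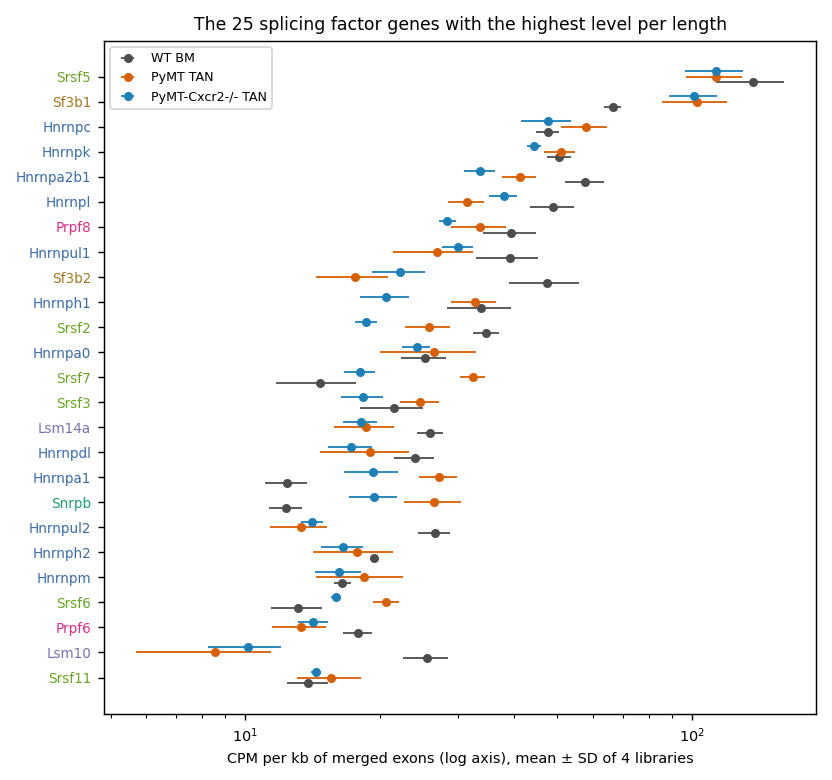
Level per length of the 25 splicing factor genes with the highest mean over 12 libraries. The x axis is CPM per kb of merged exons on a log scale, points are group means and bars are SDs of 4 libraries. Srsf5 and Sf3b1 stand above all others, and Sf3b2 and Lsm10 lie higher in WT BM than in either type of TANs.

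At the other end, Srsf1, a founding SR protein, had only 2 to 23 counts per library, or 0.340, 0.501, 0.0665 and 0.472 CPM in TANs of PyMT mice, 0.134, 0.206, 0.312 and 0.104 CPM in TANs of PyMT-Cxcr2-/- mice and 0.419, 0.342, 0.600 and 0.335 CPM in WT BM neutrophils. Hnrnpu, which encodes an abundant nuclear scaffold protein, was at 0.0212, 0.211, 0.133 and 0.164 CPM, 0.192, 0.155, 0.436 and 0.208 CPM and 0.0599, 0.187, 0.0571 and 0.140 CPM in the same order. Both genes are transcribed in most cells, and their low counts were found in every library whatever its group. They were not the only such genes. Among the other splicing genes listed further below, Snrnp40, Usp39, Sf1, Celf1 and Gemin4 were at 0 to 0.208 CPM in all 12 libraries. By the annotation used here, 1.7% of the exon bases of Srsf1 and 6.9% of those of Hnrnpu overlap a gene on the opposite strand, and 0% of either on the same strand. Of their longest coding transcripts, 1.9% and 0% match other genes. Whether the counting assigned their reads to another feature was not tested, so these values are given as deposited counts and not as evidence that the genes were silent. Snrpn, which encodes a neuronal relative of SmB, was at 0 in all 4 WT BM libraries and at 0.0425, 0.211, 0.233 and 0.349 CPM in PyMT TANs and 0.230, 0.594, 0.0623 and 0.250 CPM in PyMT-Cxcr2-/- TANs. A count of 0 in WT BM still allows up to 3 counts per library.

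Each comparison was fitted with edgeR on its 8 libraries over all genes, and a gene was called at a Benjamini-Hochberg adjusted p under 0.05 together with a fold change of 1.5 or more. The alternatives given for single genes are the 20 that refit the data, and a call of less than 1 on the log2 scale was in addition lost at a threshold of 2-fold. In PyMT TANs against WT BM, 24 of 77 members tested were higher (31.2%, with 30.1% of all genes tested) and 8 were lower (10.4%, with 23.2% of all genes). Snrpf, kept through the tumor libraries alone, is among the 24, as are Lsm7, Srsf12 and Lsmem1, which also needed tumor libraries to be kept. In PyMT-Cxcr2-/- TANs against WT BM, 13 of 76 were higher (17.1%, with 34.4% of all genes) and 14 were lower (18.4%, with 25.1% of all genes). Lsm7, Srsf12 and Lsmem1 are among the 13 as well, and the count limit favored a higher level in TANs for these genes. With these TMM factors the share of members called higher in PyMT TANs was near that of all genes, and the share called lower was below it, while in PyMT-Cxcr2-/- TANs both shares were below those of all genes. With library totals as the only scaling, 37 members were higher in PyMT TANs (48.1%, with 38.9% of all genes) and 3 lower (3.9%, with 14.5%). In PyMT-Cxcr2-/- TANs 16 were then higher (21.1%, with 37.9% of all genes) and 8 lower (10.5%, with 20.2%). The higher share in PyMT TANs was thus above that of all genes with library totals and near it with TMM factors. Every TAN library lay above every WT BM library in 24 members in PyMT TANs (31.2%, with 28.4% of all genes) and in 16 in PyMT-Cxcr2-/- TANs (21.1%, with 32.5%), and below in 18 (23.4%, with 29.7%) and 32 (42.1%, with 33.3%). Both comparisons use the same WT BM libraries, so each is given by its own values and they are not independent of each other.

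The direct comparison of PyMT-Cxcr2-/- TANs with PyMT TANs tested all 78 members. By edgeR 5 were lower (6.41%, with 0.596% of all genes tested) and 0 were higher (with 1.38% of all genes), while DESeq2 called 5 lower (6.41%, with 1.59% of all genes) and 0 higher (with 3.75%). At an unadjusted p under 0.05, edgeR gave 27 lower (34.6%, with 7.59% of all genes) and 0 higher (with 7.58%). The 5 lower genes were Srsf7, Hnrnpr, Prpf3, Hnrnph1 and Lsm3. The median log2 change of the members was -0.29, and that of all genes tested was -0.07. In 21 members (26.9%) every PyMT-Cxcr2-/- TAN library lay below every PyMT TAN library, as did 5.05% of all genes, and the reverse held for 1 member (1.28%), Hnrnpl, and for 6.89% of all genes. Among the 46 members with a mean log2 CPM of 4 or more, 14 (30.4%) lay below without overlap, against 5.71% of the 6095 genes at that level, where the median log2 change of all genes was 0.05 and that of the members -0.21. Of these 46, 3 were called lower (6.52%, with 1.2% of the genes at that level).

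**Figure D2:**
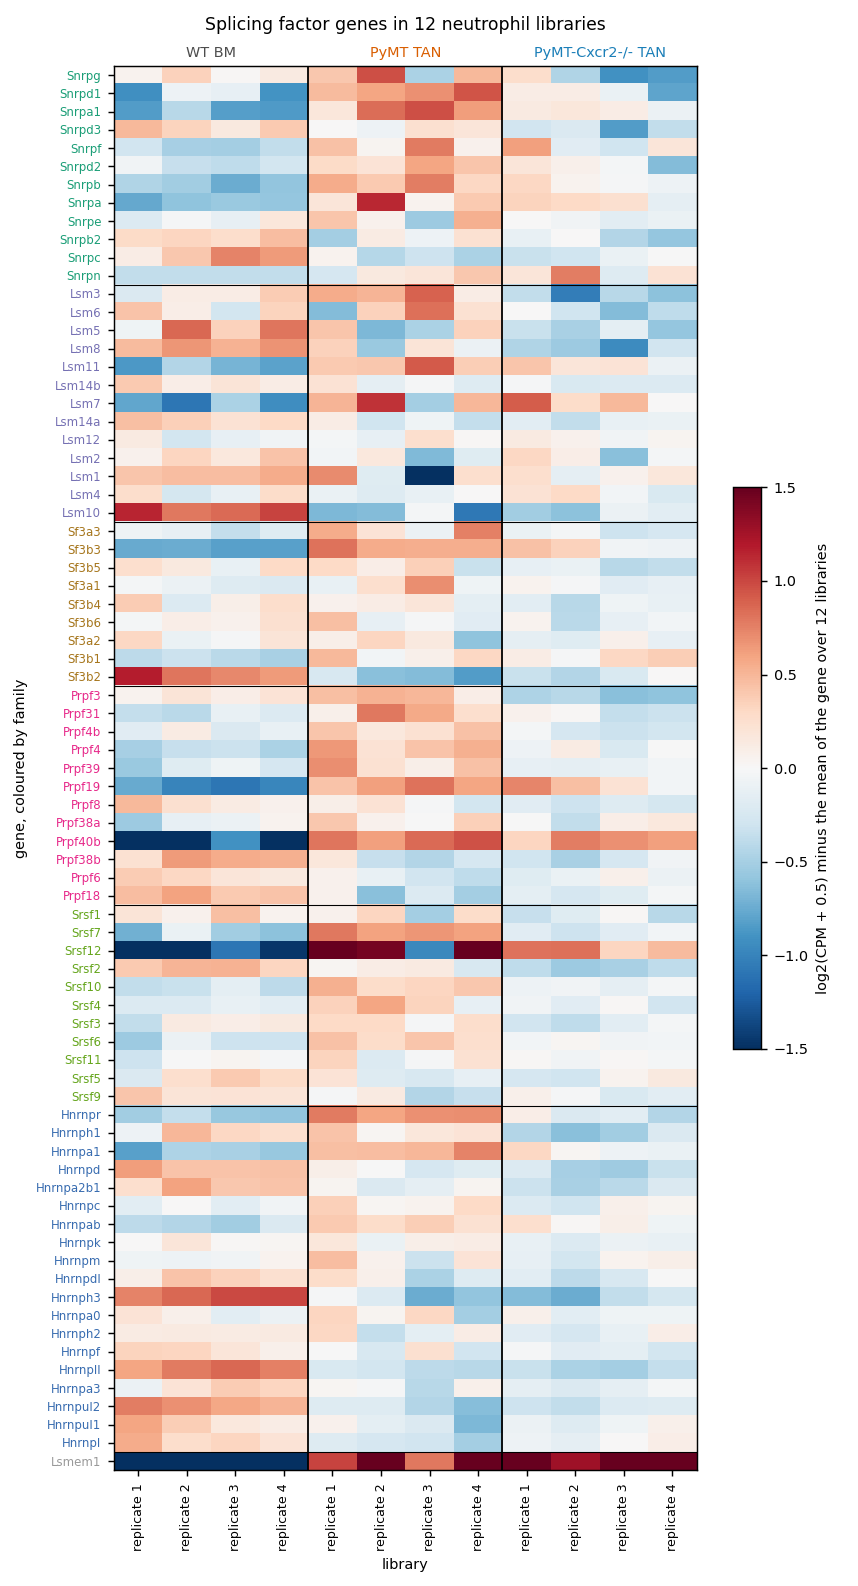
Levels of 77 of the 78 members in the 12 libraries. Rows are genes grouped by family, columns are libraries by group, and color is log2(CPM + 0.5) minus the mean of the gene over the 12 libraries, cut at 1.5 either way. The PyMT TAN columns are red more often than the PyMT-Cxcr2-/- TAN columns in the Prpf and SR blocks, while Sf3b2, Hnrnpll, Hnrnph3 and Lsm10 are highest in WT BM.

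The number of calls in the direct comparison depended on single libraries. The 5 lower calls fell to 1 without PyMT TAN replicate 2, without PyMT-Cxcr2-/- TAN replicate 3 or without PyMT-Cxcr2-/- TAN replicate 4, to 2 without PyMT-Cxcr2-/- TAN replicate 1, to 3 without PyMT TAN replicate 1, PyMT TAN replicate 3 or PyMT-Cxcr2-/- TAN replicate 2, and to 4 without PyMT TAN replicate 4. Over all genes the share called lower, 0.596% with all libraries, fell in each of these fits as well. It was 0.0681%, 0.132%, 0.147%, 0.249%, 0.456%, 0.522%, 0.24% and 0.35% in the order given, with 1.28% to 5.13% of members. Srsf7 was called in each of these 8 fits. With offsets for GC content and gene length, 2 of the 5 genes were called (Srsf7 and Prpf3), and in that comparison the log2 change had a Spearman's rho with GC content of 0.279 over the 78 members and 0.105 over 18439 genes. Leaving out the 2 libraries with the highest epithelial markers in each type of TANs left 2 libraries against 2, no member called, 8 genes called higher and 7 lower in all, and a median of -0.38 for the members. The ranges of the macrophage and the epithelial marker sums overlapped between both types of TANs. The neutrophil and the T cell marker sums were higher in each PyMT-Cxcr2-/- TAN library than in any PyMT TAN library. Only 1 of the 3 T cell markers was detected in each type of TANs, so that sum is no safe measure of T cells. The part of the marker sums in the lower levels was not tested.

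**Figure D3:**
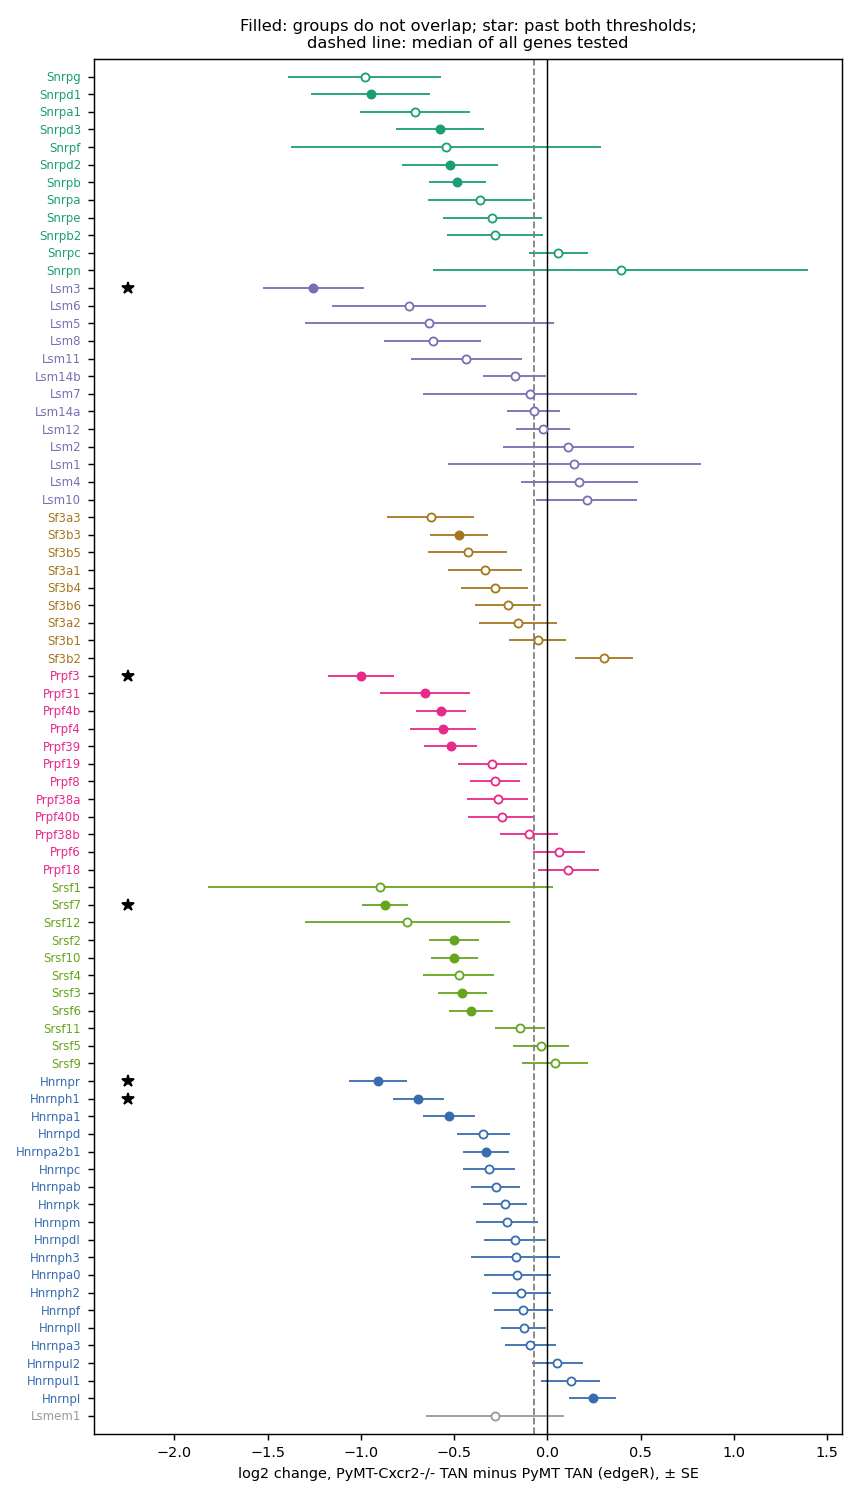
Log2 change of 77 of the 78 members in PyMT-Cxcr2-/- TANs minus PyMT TANs, with its standard error, from edgeR. Colors are families, filled points are genes whose groups do not overlap, stars mark the 5 genes past both thresholds, and the dashed line is the median of all genes tested (-0.07). Most points lie left of 0, and among the members to the right only Hnrnpl is filled.

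Srsf7, an SR protein that shuttles between nucleus and cytoplasm, gave the lowest adjusted p among the members (ENSMUSG00000024097.11, chr17:80200080-80207307, minus strand, mm10). Its level was 125, 109.7, 114 and 109.8 CPM in the PyMT TAN libraries, 64.4, 58.0, 64.1 and 70.3 CPM in those of PyMT-Cxcr2-/- mice and 43.8, 67.6, 50.4 and 47.1 CPM in WT BM. The PyMT TAN libraries stood above all 8 others, which overlapped. The log2 change between the TANs was -0.87 ± 0.12 (SE, adjusted p = 0.01), and against WT BM it was 1.22 ± 0.14 (SE, adjusted p = 2.7e-05) in PyMT TANs. In PyMT-Cxcr2-/- TANs it was 0.42 ± 0.13 (SE, adjusted p = 0.0097) against WT BM, below the 1.5-fold limit.

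Hnrnpr, an hnRNP also known for binding mRNA in neurons, had a like order of levels (ENSMUSG00000066037.14, chr4:136310942-136359447, plus strand). It was at 34.8, 30.4, 32.6 and 32.9 CPM in TANs of PyMT mice, 21.5, 17.2, 17.9 and 14.6 CPM in TANs of PyMT-Cxcr2-/- mice and 13.8, 15.5, 13.4 and 13.1 CPM in WT BM neutrophils. PyMT TANs again lay above the 8 other libraries without overlap. The log2 change was -0.91 ± 0.16 (SE, adjusted p = 0.018) between the TANs and 1.31 ± 0.14 (SE, adjusted p = 1.1e-05) in PyMT TANs against WT BM, and the direct call was lost with the GC and length offsets and without PyMT TAN replicate 2 or PyMT-Cxcr2-/- TAN replicate 3 or 4.

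Prpf3, a protein of the U4/U6 snRNP, was lowest in PyMT-Cxcr2-/- TANs (ENSMUSG00000015748.13, chr3:95830124-95855885, minus strand). Its levels were 18.8, 19.8, 19.4 and 14.7 CPM in the PyMT TAN libraries, 9.73, 10.1, 8.66 and 8.79 CPM in those of PyMT-Cxcr2-/- mice and 14.1, 15.7, 14.7 and 15.9 CPM in WT BM. The 4 PyMT-Cxcr2-/- TAN libraries lay below all others, and PyMT TANs overlapped WT BM. The log2 change was -1.0 ± 0.18 (SE, adjusted p = 0.019) between the TANs, and the call was lost without PyMT TAN replicate 2 or PyMT-Cxcr2-/- TAN replicate 1, 3 or 4.

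Hnrnph1, which binds runs of G near exons, was at 221, 168, 185 and 190.3 CPM in TANs of PyMT mice, 121, 106, 115 and 142 CPM in TANs of PyMT-Cxcr2-/- mice and 156, 234, 204 and 196 CPM in WT BM neutrophils (ENSMUSG00000007850.16, chr11:50376990-50386528, plus strand). The PyMT-Cxcr2-/- TAN libraries were again the lowest without overlap. The log2 change between the TANs was -0.69 ± 0.14 (SE, adjusted p = 0.028), and it was not called with any one library left out, with RLE scaling or with the GC and length offsets. Lsm3, a subunit of the LSm ring, was at 9.35, 9.01, 11.8 and 6.72 CPM, 4.69, 2.76, 4.53 and 3.85 CPM and 5.24, 6.72, 6.74 and 8.22 CPM in the same order (ENSMUSG00000034192.5, chr6:91515928-91522625, plus strand). Its log2 change was -1.25 ± 0.27 (SE, adjusted p = 0.04), with 107 to 440 counts per library and 23.6% of its longest coding transcript shared with a near-identical copy elsewhere, so its value is uncertain. Of the 8 fits with one library left out, it was called in the 1 without PyMT TAN replicate 4.

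**Figure D4:**
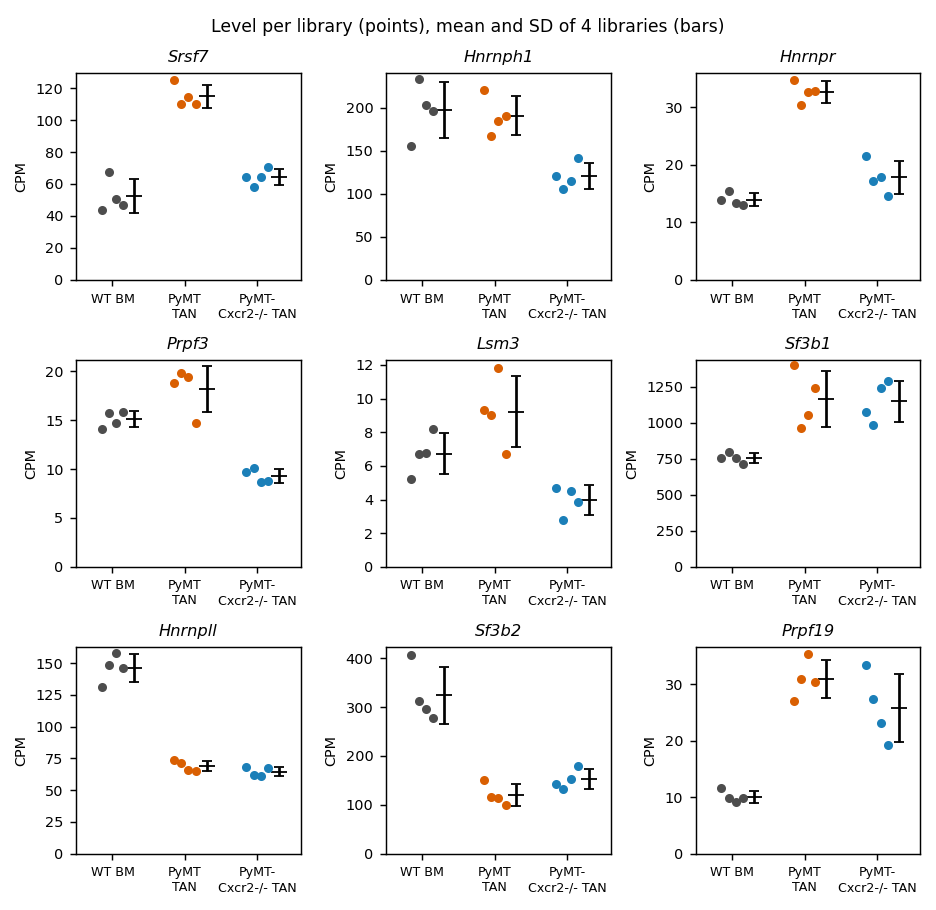
Levels of 9 splicing factor genes by library. The y axes are CPM and start at 0, points are the 4 libraries of each group and black bars are the mean and SD. The first 5 genes are lower in PyMT-Cxcr2-/- TANs than in PyMT TANs without overlap, while Sf3b1, Hnrnpll, Sf3b2 and Prpf19 differ from WT BM in both types of TANs.

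The sequence just upstream of the start is shown for genes that were called lower in PyMT-Cxcr2-/- TANs than in PyMT TANs. They were chosen by that call, so their shared direction follows from the choice. Against WT BM their orders of levels differed, and whether they are regulated together was not tested. RefSeq starts on GRCm38.p6, the assembly of mm10, matched 67 of the 78 members. Windows of 250 bases before the start were searched on both strands for CCAAT (the CCAAT box), GGGCGG (the Sp1 GC box), CCGGAAG (an ETS site), CACGTG (the E-box), TGACGTCA (CREB) and TATAAA (the TATA box), and capitals mark the matches. None of the 6 motifs contains another. Exons of protein-coding genes were left out of what is printed, which shortens Srsf7, whose window holds an exon of its divergent neighbor Ttc39d. Lsm3 is not shown, since its window holds exons of Lsm3 and of its divergent neighbor Xpc. Each sequence reads 5′ to 3′ on the strand of the gene.
Srsf7: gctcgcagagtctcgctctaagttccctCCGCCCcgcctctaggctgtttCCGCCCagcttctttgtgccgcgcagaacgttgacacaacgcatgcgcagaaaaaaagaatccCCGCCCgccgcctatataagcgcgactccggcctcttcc
Hnrnpr: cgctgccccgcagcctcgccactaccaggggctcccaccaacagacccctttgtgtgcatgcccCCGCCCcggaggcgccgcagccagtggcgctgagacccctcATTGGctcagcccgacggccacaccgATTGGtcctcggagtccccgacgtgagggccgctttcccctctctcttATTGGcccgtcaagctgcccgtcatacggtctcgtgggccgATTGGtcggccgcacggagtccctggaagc
Prpf3: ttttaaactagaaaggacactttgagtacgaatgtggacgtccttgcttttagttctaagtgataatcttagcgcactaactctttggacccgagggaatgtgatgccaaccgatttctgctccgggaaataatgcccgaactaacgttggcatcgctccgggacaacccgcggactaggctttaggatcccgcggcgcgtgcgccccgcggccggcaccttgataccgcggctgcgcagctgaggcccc
Hnrnph1: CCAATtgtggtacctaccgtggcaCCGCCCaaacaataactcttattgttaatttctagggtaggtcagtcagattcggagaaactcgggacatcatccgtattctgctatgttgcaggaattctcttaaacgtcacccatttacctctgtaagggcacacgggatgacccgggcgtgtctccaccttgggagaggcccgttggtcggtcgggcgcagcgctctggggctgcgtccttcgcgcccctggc
They lie at chr17:80207308-80207459 (minus strand), chr4:136310692-136310941 (plus strand), chr3:95855886-95856135 (minus strand) and chr11:50376740-50376989 (plus strand). Srsf7 showed 3 GC boxes in the stretch printed, Hnrnpr 4 CCAAT boxes and 1 GC box, Hnrnph1 1 of each at the far end of its window, and Prpf3 0 matches to the 6 motifs.

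Over the matched members, the GC box was present in 64.2% of windows and in 33.0% of the 27025 windows of all genes, the CCAAT box in 47.8% and 34.5%, and the ETS site in 26.9% and 7.07%. The E-box was present in 7.46% and 6.04%, the CREB site in 2.99% and 1.6%, and the TATA box in 7.46% and 13%. Member windows had a median GC content of 59.6%, and all windows one of 52.0%, which bears on the GC-rich motifs. These matches describe letters in a window and not the binding of a factor.

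Leaving out Snrpf, 5 of the 10 Snrp genes tested rose and 1 fell in PyMT TANs against WT BM (50% and 10%, with 30.1% and 23.2% of all genes), and 3 rose and 1 fell in PyMT-Cxcr2-/- TANs (30% and 10%, with 34.4% and 25.1%). Between the TANs 0 of 12 were called (with 0.596% of all genes lower and 1.38% higher). Snrpb, which encodes the Sm proteins B and B′, was at 53.8, 47.9, 62.5 and 45.4 CPM in the PyMT TAN libraries, 45.3, 37.7, 36.1 and 34.7 CPM in those of PyMT-Cxcr2-/- mice and 26.5, 25.3, 21.6 and 24.1 CPM in WT BM. The 3 groups were separate, with PyMT TANs highest and WT BM lowest. The log2 changes against WT BM were 1.19 ± 0.14 (SE, adjusted p = 3.3e-05) in PyMT TANs and 0.78 ± 0.11 (SE, adjusted p = 4.2e-05) in PyMT-Cxcr2-/- TANs, and that between the TANs, -0.48 ± 0.15 (SE, adjusted p = 0.14), did not pass. Snrpa, of the U1 snRNP, rose by 1.30 and 1.02 on the log2 scale against WT BM, and Snrpa1, of the U2 snRNP, by 1.74 and 1.10. These calls held under each of the 20 alternatives that refit the data, and the Snrpb call in PyMT-Cxcr2-/- TANs was lost at 2-fold.

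Among the other Sm proteins, Snrpd1 was at 4.59, 5.03, 5.42 and 6.57 CPM in TANs of PyMT mice, 3.47, 3.46, 2.93 and 1.63 CPM in TANs of PyMT-Cxcr2-/- mice and 1.44, 2.99, 2.89 and 1.48 CPM in WT BM neutrophils. PyMT TANs stood alone at the top, and the log2 change was 1.38 ± 0.35 (SE, adjusted p = 0.005) against WT BM and -0.95 ± 0.32 (SE, adjusted p = 0.16) between the TANs, of which the second did not pass. Snrpd2 rose in PyMT TANs by 0.77 on the log2 scale, a call lost without WT BM replicate 3, without the count filter and without the 2 libraries per TAN group highest in epithelial markers. Snrpd3 fell in PyMT-Cxcr2-/- TANs against WT BM (-0.69 ± 0.18 (SE, adjusted p = 0.0042)), a call lost in 2 of 20 alternatives, among them that without PyMT-Cxcr2-/- TAN replicate 3. Snrpb, Snrpd1, Snrpd2 and Snrpd3 were the 4 Snrp genes with no overlap between the TANs, all lower in PyMT-Cxcr2-/- TANs (33.3%, with 5.05% of all genes). The summed level of the family was 137.5 to 148 CPM in the PyMT TAN libraries, 109.4 to 126 CPM in those of PyMT-Cxcr2-/- mice and 114 to 134 CPM in WT BM.

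Snrpc, which lets U1 engage the start of the intron, went the other way. It was at 43.1, 30.8, 33.3 and 29.7 CPM in the PyMT TAN libraries, 32.6, 33.4, 38.5 and 41.2 CPM in those of PyMT-Cxcr2-/- mice and 44.7, 55.1, 69.6 and 64.8 CPM in WT BM, where it was highest without overlap. The log2 change was -0.70 ± 0.17 (SE, adjusted p = 0.0039) in PyMT TANs, and in PyMT-Cxcr2-/- TANs it was -0.57 ± 0.14 (SE, adjusted p = 0.0023), just under the 1.5-fold limit. Snrpe, Snrpg and Snrpb2 were called in no comparison. Snrpf, at 0.574, 0.316, 0.864 and 0.329 CPM in PyMT TANs and at most 5 counts per library in WT BM, was past both thresholds in PyMT TANs. It was kept only because of the tumor libraries, so that a higher level there was favored by the count limit, and the call was lost in 6 of 20 alternatives, among them those without WT BM replicate 2, 3 or 4. In addition 85.4% of its exon bases are overlapped by a gene on the opposite strand and the strand setting of the counting is not given in the sources used here. Snrpa, Snrpc, Snrpd1, Snrpd2, Snrpe, Snrpf, Snrpg and Snrpn also share 20% or more of a transcript with copies such as pseudogenes, which makes their counts uncertain.

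Of the 13 LSm genes, 2 rose and 1 fell in PyMT TANs against WT BM (15.4% and 7.69%, with 30.1% and 23.2% of all genes), 2 rose and 4 fell in PyMT-Cxcr2-/- TANs (15.4% and 30.8%, with 34.4% and 25.1%), and Lsm3 alone was called between the TANs (7.69% lower, with 0.596%). The pair that builds the U7 snRNP split. Lsm10 was at 7.39, 7.56, 11.9 and 5.48 CPM in TANs of PyMT mice, 8.32, 7.77, 11.4 and 10.8 CPM in TANs of PyMT-Cxcr2-/- mice and 27.4, 21.4, 22.2 and 25.1 CPM in WT BM neutrophils, and fell by 1.49 and 1.21 on the log2 scale in the first and second against WT BM. Lsm11 was at 3.78, 3.82, 5.65 and 3.70 CPM, 3.83, 3.20, 3.26 and 2.56 CPM and 1.29, 1.90, 1.51 and 1.37 CPM, and rose by 1.57 and 1.20. Neither gene overlapped between WT BM and TANs, and both kept their calls in each of the 20 alternatives.

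Lsm7 rose against WT BM by 2.46 in PyMT TANs and 2.44 in PyMT-Cxcr2-/- TANs from 4 to 16 counts per library in WT BM, and PyMT TAN replicate 3 with 13 counts overlapped them. Lsm8, which is particular to the nuclear ring on U6, fell in PyMT-Cxcr2-/- TANs (-1.06 ± 0.17 (SE, adjusted p = 7.4e-05)), as did Lsm5 (-1.26 ± 0.37 (SE, adjusted p = 0.0081)) and Lsm3 (-0.65 ± 0.22 (SE, adjusted p = 0.017)), and none of the 3 was called in PyMT TANs. The call of Lsm5 was lost with GC and length offsets. That of Lsm3 was lost in 4 of 20 alternatives, among them those without PyMT-Cxcr2-/- TAN replicate 2 or WT BM replicate 4. In Lsm5 and Lsm7, 56.5% and 27.8% of the longest coding transcript match other genes, so their counts are uncertain. Lsm1, of the cytoplasmic ring, had 6 counts in PyMT TAN replicate 3 and 171 to 411 in the other PyMT TAN libraries, so its group mean of 4.92 ± 3.59 CPM (SD, n = 4) rests on which of these is used. Lsm14a, the highest of the family, was at 115 ± 17.4 CPM in the PyMT TAN libraries, 111 ± 9.70 CPM in those of PyMT-Cxcr2-/- mice and 159 ± 10.6 CPM in WT BM, with log2 changes of -0.40 ± 0.12 (SE, adjusted p = 0.017) and -0.40 ± 0.10 (SE, adjusted p = 0.0021) that stayed under the 1.5-fold limit. Lsm12, Lsm14b, Lsm2, Lsm4 and Lsm6 passed no test.

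Of the 9 SF3 genes, 3 rose and 1 fell in PyMT TANs (33.3% and 11.1%, with 30.1% and 23.2% of all genes), 2 rose and 1 fell in PyMT-Cxcr2-/- TANs (22.2% and 11.1%, with 34.4% and 25.1%), and 0 were called between the TANs (with 0.596% lower and 1.38% higher). The subunits of SF3b, which act as one complex, did not move as one. Sf3b1 was at 1402, 968, 1056 and 1239.6 CPM in TANs of PyMT mice, 1077, 989, 1242 and 1294 CPM in TANs of PyMT-Cxcr2-/- mice and 758, 797, 756 and 714 CPM in WT BM neutrophils, and both types of TANs lay above WT BM without overlap. Its log2 change was 0.70 ± 0.13 (SE, adjusted p = 0.00076) in PyMT TANs and 0.72 ± 0.12 (SE, adjusted p = 8.2e-05) in PyMT-Cxcr2-/- TANs, with both calls lost under GC and length offsets. Sf3b3 rose with it, at 74.3, 61.9, 61.2 and 61.4 CPM, 56.9, 53.5, 40.5 and 39.8 CPM and 24.6, 24.8, 23.5 and 23.7 CPM in the same order of groups. Its 3 groups were separate, with log2 changes of 1.5 ± 0.11 (SE, adjusted p = 1.1e-06) and 1.10 ± 0.13 (SE, adjusted p = 5.6e-06) against WT BM.

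Sf3b2 fell in the same libraries. It was at 152, 116, 114 and 99.8 CPM in the PyMT TAN libraries, 143, 132, 152 and 180.1 CPM in those of PyMT-Cxcr2-/- mice and 408, 313, 296 and 279 CPM in WT BM. Every WT BM library lay well above every TAN library, and the log2 changes were -1.35 ± 0.16 (SE, adjusted p = 2.7e-05) and -0.97 ± 0.13 (SE, adjusted p = 2.1e-05). The calls of Sf3b2 and Sf3b3 held under each of the 20 alternatives that refit the data, and that of Sf3b2 in PyMT-Cxcr2-/- TANs was lost at 2-fold. Sf3b4, Sf3b5 and Sf3b6 passed no test. Of SF3a, Sf3a3 rose in PyMT TANs (0.68 ± 0.23 (SE, adjusted p = 0.025)), and Sf3a1 and Sf3a2 passed no test. The Sf3a3 call was lost in 9 of 20 alternatives, among them those without PyMT TAN replicate 1 or 4 or any of the 4 WT BM replicates.

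Of the 13 Prpf genes, 5 rose and 2 fell in PyMT TANs (38.5% and 15.4%, with 30.1% and 23.2% of all genes), 2 rose and 1 fell in PyMT-Cxcr2-/- TANs (15.4% and 7.69%, with 34.4% and 25.1%), and Prpf3 was called between the TANs (7.69% lower, with 0.596%). Prpf19, a ubiquitin ligase at the heart of the spliceosome, was at 27.0, 30.9, 35.3 and 30.3 CPM in TANs of PyMT mice, 33.4, 27.3, 23.2 and 19.3 CPM in TANs of PyMT-Cxcr2-/- mice and 11.6, 9.80, 9.09 and 9.84 CPM in WT BM neutrophils. Both types of TANs lay above WT BM and overlapped each other. The log2 changes were 1.70 ± 0.16 (SE, adjusted p = 6.3e-06) and 1.48 ± 0.17 (SE, adjusted p = 4.7e-06). Prpf40b, a relative of a yeast U1 protein, rose by 2.44 and 2.27 from 3.02 ± 0.917 CPM in WT BM (mean ± SD, n = 4). The Prpf19 and Prpf40b calls held under each of the 20 alternatives.

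Prpf4, the partner of Prpf3 in the U4/U6 snRNP, was at 19.2, 14.1, 16.3 and 17.6 CPM in TANs of PyMT mice, 11.3, 13.2, 10.2 and 12 CPM in TANs of PyMT-Cxcr2-/- mice and 8.39, 9.34, 9.49 and 8.52 CPM in WT BM neutrophils. It rose in PyMT TANs (0.99 ± 0.17 (SE, adjusted p = 0.00045)), and its groups were separate, while the change of -0.56 ± 0.18 (SE, adjusted p = 0.14) between the TANs did not pass. Prpf31, of the same snRNP, and Prpf39, of U1, rose in PyMT TANs by 0.84 and 0.72 on the log2 scale, and the Prpf39 call was lost with GC and length offsets or without WT BM replicate 1. Prpf4b, a kinase of the spliceosome, was at 57.3, 47.9, 50.0 and 58.0 CPM, 41.7, 35.9, 34.1 and 35.2 CPM and 38.0, 46.6, 36.7 and 39.6 CPM, and its change between the TANs (-0.57 ± 0.13 (SE, adjusted p = 0.055)) missed both thresholds. The TAN groups did not overlap in Prpf3, Prpf4, Prpf4b, Prpf31 and Prpf39, all lower in PyMT-Cxcr2-/- TANs (with 5.05% of all genes lower without overlap). The summed level of the family was 781 to 924 CPM in the PyMT TAN libraries, 644 to 699 CPM in those of PyMT-Cxcr2-/- mice and 821 to 908 CPM in WT BM.

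Prpf8, the scaffold of the catalytic center, was at 263, 289.5, 245 and 205 CPM in the PyMT TAN libraries, 221, 200.2, 218 and 208 CPM in those of PyMT-Cxcr2-/- mice and 349.8, 294, 271 and 260.0 CPM in WT BM and was called in no comparison. Prpf38b fell against WT BM in PyMT TANs (-0.62 ± 0.14 (SE, adjusted p = 0.0033)) and in PyMT-Cxcr2-/- TANs (-0.65 ± 0.11 (SE, adjusted p = 0.00018)). The first call was lost in 5 of 20 alternatives, among them those without PyMT TAN replicate 2 or 3. The second was lost in 3 of 20, among them that without PyMT-Cxcr2-/- TAN replicate 2. Both were lost without the 2 libraries per TAN group highest in epithelial markers. Prpf18, of the second catalytic step, fell in PyMT TANs (-0.70 ± 0.15 (SE, adjusted p = 0.0019)), a call that ended with library totals as the only scaling and at 2-fold. Prpf6 and Prpf38a were not called.

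Of the 11 SR genes, 4 rose and 0 fell in PyMT TANs (36.4% and 0%, with 30.1% and 23.2% of all genes), 1 rose and 1 fell in PyMT-Cxcr2-/- TANs (9.09% each, with 34.4% and 25.1%), and Srsf7 was called between the TANs (9.09% lower, with 0.596%). Srsf10, which can repress splicing when it loses its phosphates, was at 54.8, 45.6, 47.4 and 50.1 CPM in TANs of PyMT mice, 35.7, 36.4, 34.4 and 36.9 CPM in TANs of PyMT-Cxcr2-/- mice and 29.2, 29.8, 34.2 and 28.7 CPM in WT BM neutrophils. Srsf6 was at 106, 94.4, 104 and 93.4 CPM, 76.0, 79.6, 75.6 and 75.7 CPM and 53.3, 73.4, 63.1 and 62.8 CPM in the same order. In both genes the 3 groups were separate, with PyMT TANs at the top, and the rises in PyMT TANs were 0.78 ± 0.12 (SE, adjusted p = 0.00021) and 0.74 ± 0.12 (SE, adjusted p = 0.00033). In PyMT-Cxcr2-/- TANs their log2 changes of 0.35 and 0.40 were under the 1.5-fold limit, and between the TANs those of -0.50 ± 0.12 (SE, adjusted p = 0.067) and -0.41 ± 0.12 (SE, adjusted p = 0.1) did not pass.

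Srsf2, which acts in the nucleus on exon enhancers, was at 77.2, 81.3, 82.8 and 63.5 CPM in the PyMT TAN libraries, 57.8, 51.6, 53.7 and 57.7 CPM in those of PyMT-Cxcr2-/- mice and 99.2, 108, 109 and 94.7 CPM in WT BM. The order was reversed, with WT BM highest, PyMT TANs between and PyMT-Cxcr2-/- TANs lowest, and no groups overlapped. Srsf2 fell in PyMT-Cxcr2-/- TANs (-0.77 ± 0.09 (SE, adjusted p = 4.6e-06)), and the log2 change in PyMT TANs was -0.35 ± 0.12 (SE, adjusted p = 0.028), under the 1.5-fold limit. Srsf3, the smallest SR protein, was at 206, 206, 166 and 201 CPM in PyMT TANs and 137, 129, 151 and 164 CPM in PyMT-Cxcr2-/- TANs, without overlap but with a change of -0.46 ± 0.13 (SE, adjusted p = 0.11). Srsf5 was at 548, 418, 405 and 437 CPM, 399, 389, 493 and 526 CPM and 409.9, 566, 628 and 581 CPM, with the groups overlapping. In Srsf2, Srsf3 and Srsf5, 39.4%, 49.5% and 51.7% of the longest coding transcript match other genes. In Srsf2, 25.3% of exon bases also overlap a gene on the opposite strand, so the counts of these 3 are uncertain. Srsf2, Srsf3, Srsf6, Srsf7 and Srsf10 were the 5 SR genes without overlap between the TANs, all lower in PyMT-Cxcr2-/- TANs (45.5%, with 5.05% of all genes).

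Srsf12, a little-expressed SR protein, was at 5.84, 5.32, 0.598 and 6.76 CPM in TANs of PyMT mice, 3.28, 3.30, 2.18 and 2.48 CPM in TANs of PyMT-Cxcr2-/- mice and 0.120, 0.0934, 0.514 and 0.279 CPM in WT BM neutrophils. PyMT TAN replicate 3 lay near WT BM, and the log2 changes of 4.25 ± 0.79 (SE, adjusted p = 0.00074) and 3.57 ± 0.45 (SE, adjusted p = 1e-05) start from very few counts. Srsf4, Srsf9 and Srsf11 were not called.

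**Figure D5:**
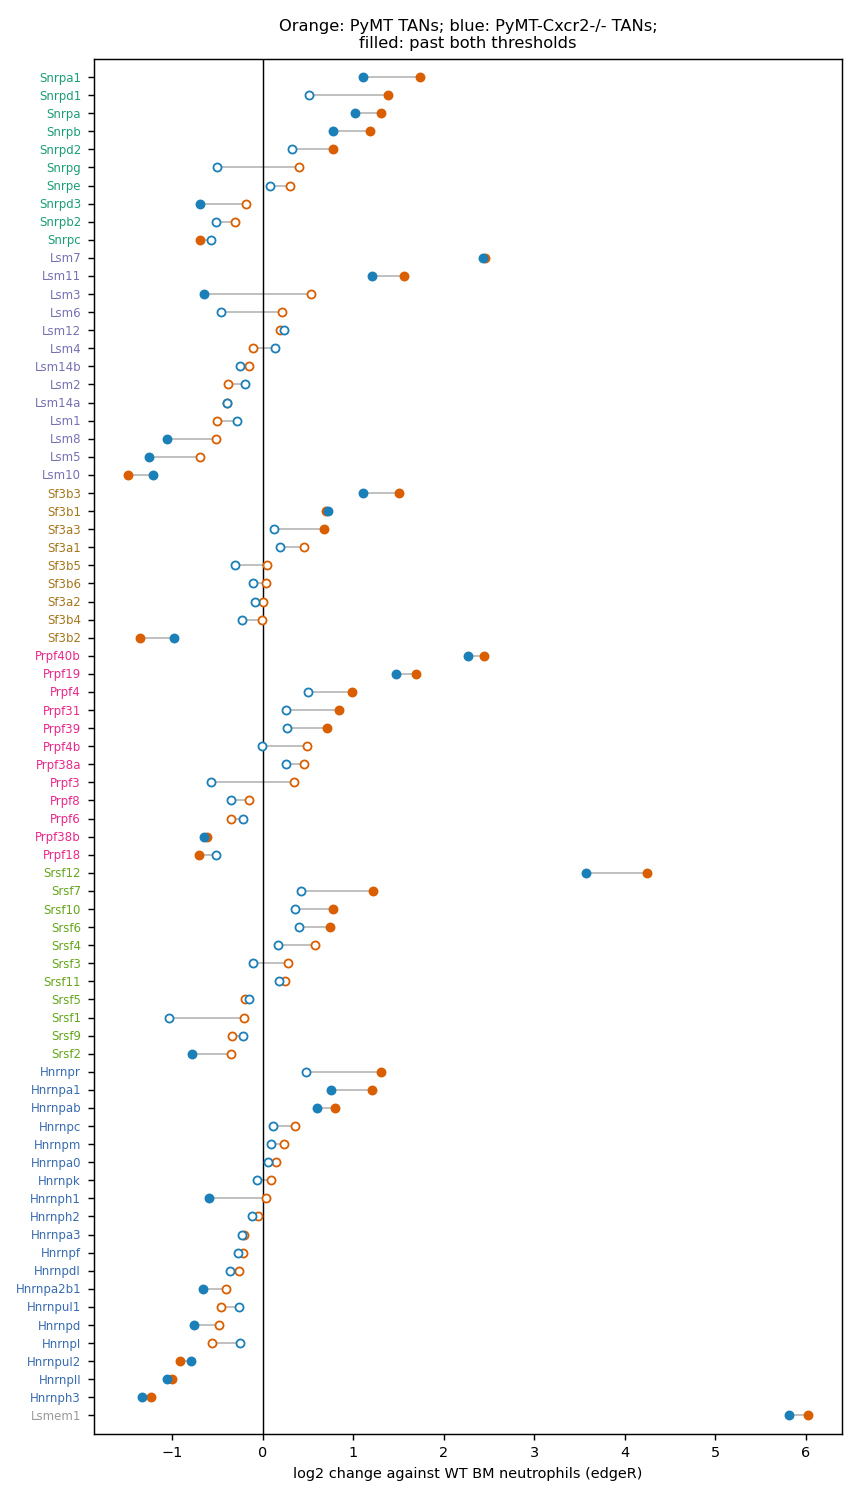
Log2 changes against WT BM of members tested in both comparisons, from edgeR. Orange points are PyMT TANs, blue points are PyMT-Cxcr2-/- TANs, lines join the values of a gene, filled points are past both thresholds, and gene names are colored by family. Lsmem1 and Srsf12 lie farthest to the right and Lsm10 farthest to the left, and Srsf7, Hnrnpr and Snrpd1 are called in PyMT TANs and not in PyMT-Cxcr2-/- TANs.

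Of the 19 hnRNP genes, 3 rose and 3 fell in PyMT TANs (15.8% each, with 30.1% and 23.2% of all genes), 2 rose and 6 fell in PyMT-Cxcr2-/- TANs (10.5% and 31.6%, with 34.4% and 25.1%), and Hnrnpr and Hnrnph1 were called between the TANs (10.5% lower, with 0.596%). Hnrnpa1, a repressor of many exons, was at 80.1, 81.1, 83.3 and 98.2 CPM in the PyMT TAN libraries, 73.1, 60.1, 55.8 and 54.6 CPM in those of PyMT-Cxcr2-/- mice and 33.2, 42.4, 41.7 and 39.4 CPM in WT BM. Its 3 groups were separate. The log2 changes were 1.21 ± 0.13 (SE, adjusted p = 1.3e-05) and 0.76 ± 0.12 (SE, adjusted p = 7.6e-05) against WT BM, and -0.53 ± 0.14 (SE, adjusted p = 0.085) between the TANs, which did not pass. As 58.5% of its longest coding transcript matches other genes, its count is uncertain. Hnrnpab rose in PyMT TANs (0.80 ± 0.12 (SE, adjusted p = 0.0002)) and, close to the 1.5-fold limit, in PyMT-Cxcr2-/- TANs (0.60 ± 0.11 (SE, adjusted p = 0.00029)), where the call was lost in 9 of 20 alternatives, among them those without PyMT-Cxcr2-/- TAN replicate 1 or WT BM replicate 1, 2 or 3. Its count is uncertain too, with 30.6% of the transcript matching another gene and 29.1% of exon bases overlapped on the opposite strand.

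Hnrnpa2b1, the relative of Hnrnpa1 that also sorts RNA into vesicles, was highest in WT BM. It was at 291, 244, 258 and 292 CPM in TANs of PyMT mice, 226, 202, 214 and 243 CPM in TANs of PyMT-Cxcr2-/- mice and 337, 429, 373 and 381 CPM in WT BM neutrophils. No groups overlapped, and the gene fell in PyMT-Cxcr2-/- TANs (-0.66 ± 0.10 (SE, adjusted p = 7.7e-05)) while the value of -0.41 ± 0.12 (SE, adjusted p = 0.011) in PyMT TANs was under the 1.5-fold limit. Hnrnpd, which binds AU-rich elements, fell in PyMT-Cxcr2-/- TANs (-0.76 ± 0.10 (SE, adjusted p = 2.1e-05)), and was not called in PyMT TANs. Hnrnph1 fell in PyMT-Cxcr2-/- TANs as well (-0.59 ± 0.13 (SE, adjusted p = 0.001)), at the edge of the fold limit, and lost that call in 12 of 20 alternatives, including 5 of the 8 fits without one library (without PyMT-Cxcr2-/- TAN replicate 1, 2 or 3 or WT BM replicate 2 or 3).

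Hnrnpll, known for the exon choice of Ptprc in lymphocytes, was at 73.7, 71.4, 65.9 and 64.8 CPM in the PyMT TAN libraries, 68.4, 62.1, 60.8 and 67.2 CPM in those of PyMT-Cxcr2-/- mice and 131, 148, 158 and 146 CPM in WT BM. Both types of TANs lay below WT BM and overlapped each other, with log2 changes of -1.0 ± 0.11 (SE, adjusted p = 1.3e-05) and -1.06 ± 0.09 (SE, adjusted p = 4.3e-07). The 3 T cell markers summed to 9.29 to 17.1 CPM in the PyMT TAN libraries and 22.5 to 40.9 CPM in those of PyMT-Cxcr2-/- mice. In WT BM the sum was 209 to 244 CPM. Of these 3 markers, 1 was detected in each type of TANs and 2 in WT BM. The sum is thus no safe measure of T cells, and the part of these markers in the Hnrnpll level was not tested. Hnrnph3 fell by 1.24 and 1.33 and Hnrnpul2 by 0.92 and 0.79 on the log2 scale against WT BM in PyMT and PyMT-Cxcr2-/- TANs. Hnrnpl, the paralog of Hnrnpll, was at 202, 193, 189 and 162 CPM, 217, 209, 230.4 and 247 CPM and 338, 275, 287 and 265 CPM and was called in no comparison, with 0.24 ± 0.12 (SE, adjusted p = 0.4) between the TANs.

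Hnrnpk and Hnrnpc are abundant RNA-binding proteins with general roles. Hnrnpk was at 352, 291, 332 and 338 CPM in TANs of PyMT mice, 290.3, 272, 295 and 290.2 CPM in TANs of PyMT-Cxcr2-/- mice and 313, 356, 316 and 319 CPM in WT BM neutrophils. Hnrnpc was at 281, 223, 226 and 269 CPM, 189, 177, 231 and 224 CPM and 196, 219.7, 196 and 211 CPM. Neither was called in any comparison, as was the case for Hnrnpa0, Hnrnpa3, Hnrnpdl, Hnrnpf, Hnrnph2, Hnrnpm and Hnrnpul1. Hnrnpa1, Hnrnpa2b1, Hnrnph1 and Hnrnpr were the hnRNP genes lower without overlap in PyMT-Cxcr2-/- than in PyMT TANs (21.1%, with 5.05% of all genes).

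Lsmem1 was at 15.4, 26.4, 13.2 and 52.8 CPM in the PyMT TAN libraries, 24, 18.6, 24.7 and 23.7 CPM in those of PyMT-Cxcr2-/- mice and 0.419, 0.685, 0.571 and 0.0838 CPM in WT BM. It rose by 6.03 and 5.82 on the log2 scale against WT BM, the largest rise among the members. Without it, 23 of 76 members tested were higher in PyMT TANs (30.3%, with 30.1% of all genes) and 12 of 75 in PyMT-Cxcr2-/- TANs (16%, with 34.4%).

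Splicing genes outside these symbols were read from lists of known factors. Of 45 core spliceosome genes listed, 42 had enough counts to be tested, which left out Snrnp40, Usp39 and Sf1. Of the 42, 3 rose and 10 fell in PyMT TANs against WT BM (7.14% and 23.8%, with 30.1% and 23.2% of all genes, median log2 change -0.23). In PyMT-Cxcr2-/- TANs 3 rose and 13 fell (7.14% and 31%, with 34.4% and 25.1%, median -0.33), and 0 were higher and 2 lower between the TANs (4.76% lower, with 0.596%, median -0.17). The 2 were U2af1, which recognizes the end of the intron (-0.77 ± 0.14 (SE, adjusted p = 0.02)), and Dhx15, a helicase that dismantles spliceosomes (-0.64 ± 0.12 (SE, adjusted p = 0.023)). Without one library the U2af1 call was lost in 5 of 8 fits and the Dhx15 call in 6 of 8. Eftud2, a GTPase of the U5 snRNP, rose against WT BM in PyMT TANs by 1.75 and in PyMT-Cxcr2-/- TANs by 1.12. Of the 11 minor spliceosome genes, which serve a rare class of introns, 1 rose and 5 fell in PyMT TANs (9.09% and 45.5%, with 30.1% and 23.2% of all genes, median -0.44), and 0 rose and 6 fell in PyMT-Cxcr2-/- TANs (0% and 54.5%, with 34.4% and 25.1%, median -0.76). Between the TANs 0 were called (with 0.596% of all genes lower and 1.38% higher, median -0.43). Zrsr2, of this class, fell by 0.99 and 0.97 against WT BM.

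Of 14 genes of snRNP assembly tested, 5 rose and 3 fell in PyMT TANs (35.7% and 21.4%, with 30.1% and 23.2% of all genes) and 6 rose and 3 fell in PyMT-Cxcr2-/- TANs against WT BM (42.9% and 21.4%, with 34.4% and 25.1%). Between the TANs 0 of the 14 were called (with 0.596% of all genes lower and 1.38% higher, median log2 change -0.35). Prmt5, which methylates Sm proteins, rose by 3.44 and 3.09, and its cofactor Wdr77 fell by 1.27 and 1.20. Of 8 genes for SR protein kinases and their importer, 0 rose and 2 fell in each of these comparisons (25%, with 23.2% and 25.1% of all genes), Srpk1 and Srpk2. Srpk2 was at 54.0, 55.0, 59.0 and 71.1 CPM in TANs of PyMT mice, 91.7, 82.0, 111 and 137 CPM in TANs of PyMT-Cxcr2-/- mice and 343, 322, 350.2 and 319 CPM in WT BM neutrophils. It was the 1 gene of these lists that was higher in PyMT-Cxcr2-/- than in PyMT TANs (0.79 ± 0.18 (SE, adjusted p = 0.048)). That is 12.5% of its list, with 1.38% of all genes, and the call was lost without any one of 7 libraries, all but PyMT-Cxcr2-/- TAN replicate 2. Of 38 other splicing regulators, 9 rose and 7 fell in PyMT TANs (23.7% and 18.4%, with 30.1% and 23.2% of all genes), 7 rose and 6 fell in PyMT-Cxcr2-/- TANs (18.4% and 15.8%, with 34.4% and 25.1%), and 0 were called between the TANs (with 0.596% of all genes lower and 1.38% higher). Ptbp1, a repressor that binds pyrimidine tracts, rose by 1.43 and 1.29, its paralog Ptbp2 fell by 1.07 and 0.96, and Rbm5 fell by 1.40 and 1.14. Esrp1, a regulator particular to epithelium, was at 0 in WT BM and at 1.19, 2.53, 13.3 and 22.5 CPM in PyMT TANs and 9.08, 13.4, 7.02 and 6.44 CPM in PyMT-Cxcr2-/- TANs, and in PyMT TANs the 2 libraries with the highest epithelial markers, replicates 3 and 4, also had the most Esrp1. The part of epithelial cells in it was not tested.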

How the data were processed

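RNA-seq counts of neutrophils from 3 groups with 4 libraries each were used. Per the study's methods, RNA was freed of rRNA, made into strand-specific libraries and read from both ends. The authors aligned trimmed reads with STAR (mm10) and used HTSeq for counting, and the values they deposited are raw gene counts that had not been normalized. The strand setting and the annotation release are not given in the sources used here. HTSeq assigned 32.0% to 52.5% of each library to no feature, and such classes were left out of totals and tests. The class of alignments that were not unique held 6.07% to 8.72% in PyMT TAN libraries, 6.20% to 7.01% in PyMT-Cxcr2-/- TAN libraries and 9.22% to 11.4% in WT BM.

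Of 55335 genes, 55154 were matched to GENCODE M21 for symbols, coordinates and exon lengths. The comparisons were fitted with edgeR 4.0.16 in R 4.3.3, each on its 2 groups, with TMM factors, filterByExpr, robust estimation and the quasi-likelihood test, and p-values were adjusted over all genes tested by Benjamini-Hochberg. SEs were taken as the log2 change over the root of F, and CPM used TMM factors from all 12 libraries. A member was marked uncertain where 20% or more of its exon bases overlap another gene or of its longest coding transcript matches another gene at 95% identity over 100 bases or more, which held for 25 members. Beside the Snrp genes named above, Lsm3 and Hnrnpa1, these were Lsm5, Lsm7, Lsm12, Sf3b4, Srsf2, Srsf3, Srsf4 and Srsf5. They also include Hnrnpa3, Hnrnpab, Hnrnpc, Hnrnpf, Hnrnph2, Hnrnpk and Hnrnpm.

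Alternatives were other scalings, other filters, 12 libraries in one fit, no robust estimation, DESeq2 1.42.0, the replicate number as a block, GC and length offsets (natural splines with 5 degrees of freedom), other thresholds, and each library left out in turn. One alternative, without the 2 libraries per TAN group with the highest epithelial markers, was chosen after seeing the data. On simulated counts for 18463 genes of the direct comparison, edgeR recovered 33 of 200 genes changed by 1 on the log2 scale with 3 false calls, 138 of 200 changed by 3 with 10 false calls, and called 0 without any change. For 1, 3 and no change, DESeq2 recovered 61 and 164 with 54 and 51 false calls, and made 11 false calls. The simulated counts were drawn with the spread per gene that edgeR had estimated, which may favor edgeR. They hold no single library that deviates from its group, so they do not give the error rates for such libraries.

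Named genes are those with the largest rise and fall in each family and comparison among members with a mean log2 CPM of at least 4, those called between the TANs, a list of textbook members, and further members as examples of the counts. One member counted in the totals is not reported here by itself or drawn in the plots. The members and lists were chosen with earlier results of these data known. Precision is lowest for members with few counts, such as Snrpf, Snrpn, Srsf1 and Lsm7. Each of the 18 pairs of libraries within a group differed beyond sampling noise (chi-square per degree of freedom of 24.9 or more), so no library was a copy of another.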

Additional observations from a re-analysis of the deposited data

Results flagged for a closer look

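Over 34 named genes, 7 of 102 groups held 1 library far from the other 3 by Dixon's ratio of gap to range, where chance alone gives about 1 in 20. Srsf3 was at 166 CPM in PyMT TAN replicate 3 and 201 to 206 CPM in the other PyMT TANs, and at 129 CPM in WT BM replicate 1 and 180.3 to 186 CPM in the other WT BM libraries. In WT BM, Hnrnpk was at 356 CPM in replicate 2 and 313 to 319 CPM in the others, and Srsf9 at 29.4 CPM in replicate 1 and 25.1 to 25.4 CPM in the others. In PyMT TANs, Lsm11 was at 5.65 CPM in replicate 3 and 3.70 to 3.82 CPM in the others, and Sf3b3 at 74.3 CPM in replicate 1 and 61.2 to 61.9 CPM in the others. Lsm14b was at 15.8 CPM in PyMT-Cxcr2-/- TAN replicate 1 and 13.6 to 13.9 CPM in the others.

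Both types of TANs differed by the direct edgeR test in 5 genes, with log2 changes of -0.87 in Srsf7, -0.91 in Hnrnpr, -1.0 in Prpf3, -0.69 in Hnrnph1 and -1.25 in Lsm3 (PyMT-Cxcr2-/- minus PyMT). Each was lower in 4 of 4 PyMT-Cxcr2-/- TAN libraries than in any PyMT TAN library, as were 5.05% of all genes. These genes were chosen by a call on the same libraries, so this separation adds no support to it.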

How the results depend on the processing

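With library totals as the only scaling, the median log2 change of all genes moved from 0.09 to 0.53 in PyMT TANs against WT BM, from 0.09 to 0.27 in PyMT-Cxcr2-/- TANs against WT BM and from -0.07 to -0.26 between the TANs. Members called then numbered 37 higher and 3 lower (with 6674 and 2488 of all genes), 16 higher and 8 lower (with 6723 and 3585), and 0 higher and 14 lower (with 206 and 391) in the same order. Values that were not called turned sign for Srsf2 (0.09), Lsm14a (0.044) and Hnrnpa2b1 (0.033) in PyMT TANs against WT BM and for Prpf18 (-0.07), Snrpc (-0.13) and Srsf9 (-0.14) between the TANs. In PyMT TANs against WT BM, the 8 lower calls became 13 with GC and length offsets, with or without the replicate block (25.3% and 25.1% of all genes without and with it), 15 on adjusted p alone (25.9%) and 4 at 2-fold (17%), where the 24 higher calls became 15 (26.4%). In PyMT-Cxcr2-/- TANs against WT BM, the 14 lower calls became 23 on adjusted p alone (31.2% of all genes) and 5 at 2-fold (16.7%). With 12 libraries in one fit they became 18 (23.1% of members, with 22.1% of all genes), so there the lower share was not below that of all genes. Between the TANs, the 5 lower calls became 3 with RLE factors (0.417% of all genes), 2 with GC and length offsets (0.347%), 1 at 2-fold (0.32%) and 0 without the 2 libraries per TAN group with the highest epithelial markers, where Srsf9 was at -0.27.

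Same-numbered libraries of different groups did not deviate together (mean correlation -0.04 over 12 pairs), so the numbers were not taken as pairs. With the replicate block there were 0 member calls between the TANs, with or without GC and length offsets. Over all genes 4 were higher and 9 lower without the offsets, and 3 and 5 with them. With each library left out in turn, calls were 21 to 25 higher and 8 to 10 lower in PyMT TANs against WT BM (with 26.9% to 32.5% and 20.6% to 24.5% of all genes). In PyMT-Cxcr2-/- TANs against WT BM they were 12 to 14 higher and 13 to 16 lower (with 33.4% to 34.9% and 23.5% to 25.4%). Between the TANs they were 0 higher and 1 to 4 lower (with 0.0524% to 2.27% and 0.0681% to 0.522%). Srsf9, at 0.04 between the TANs with all libraries, ranged from -0.035 to 0.156 and turned sign in 3 of 8 fits. Of 32 members called in PyMT TANs against WT BM, 20 were called under each alternative that refits the data. So were 18 of 27 in PyMT-Cxcr2-/- TANs and 0 of 5 between the TANs. The same share was not computed for all genes, so these counts do not set the members apart. Between the TANs the replicate block left only 4 higher and 9 lower calls over all genes, which makes 0 of 5 likely for any genes. The causes of these shifts were not tested. Counting depth limits members with few counts, such as Lsm5 and Snrpf.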
